A study of Mus musculus with 947 samples.

Results

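miR-184-3p is a mature microRNA cut from the 3′ arm of the Mir184 hairpin, and its level was followed here across every tissue, age and parabiosis group of the series. It was the only member, 1 of 1076 miRNAs and 7883 RNAs listed for the aging cohort and 1 of 795 miRNAs and 5248 RNAs listed for the parabiosis cohort, and it was chosen by its correlation with age, which was above 0.5 in several tissues of the aging cohort. Its course with age in those mice is therefore given as a description, without a test. The tests below concern tissue, sex and the parabiosis mice rather than age in the aging cohort. They are not independent of the data, since miR-184-3p and the tests were chosen with earlier results of these data known. The values are reads scaled to 1000000 mapped reads (rpmm), and a log2 difference was taken on log2(rpmm + 1), which understates changes at low levels.

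The aging cohort, the Tabula Muris Senis mice, comprised 769 small RNA libraries of 16 tissues from C57BL/6JN mice at 10 ages between 1 and 27 months. Males contributed 553 libraries and virgin females 216, and the ages of 24 and 27 months had no females. The parabiosis cohort comprised 176 libraries of 6 tissues, all from male mice (30 in number) sutured together in pairs with a shared circulation. Isochronic young mice (IY, 8 mice, 4 of 3 months and 4 of 4.5 months) and isochronic aged mice (IA, 8 mice of 19 months) were joined to a partner of their own age. Heterochronic young mice (HY, 7 mice of 4 months) were joined to heterochronic aged mice (HA, 7 mice of 19 months), and since every HY mouse was of a strain that no other mouse had, the strain and the HY group cannot be told apart. In the study's sample metadata the IY, IA and HA mice are C57BL/6J except 19A, 19B and 20A, which are C57BL/6JN, but its summary of animals gives these names the other way round, so only the split of these 3 aged mice from the rest is used here. Of the adipose tissues, BAT is brown fat, and GAT, SCAT and MAT are the gonadal, subcutaneous and mesenteric depots.

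A microRNA guides Argonaute proteins to messenger RNAs, mainly by pairing its seed, the bases near its 5′ end, with sites in the transcript, and it lowers the output of the targeted messages. miR-184 is highly conserved among animals and is best known from the cornea and lens epithelium, from neural cells, and from pancreatic beta cells, where it acts on Argonaute2 and insulin secretion. A miRNA without relatives that share its seed is read here as a family of its own.

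The mature and hairpin sequences were taken from the RefSeq table for GRCm38.p6. They are shown for the seed, which pairs with targets, and for the whole sequence and its locus. Likeness over the whole sequence, rather than the seed, bears on whether reads of another miRNA could be counted as miR-184-3p. Capitals mark the seed, bases 2 to 8, in both mature arms, and the mature 3p arm in the hairpin.
mmu-miR-184-3p: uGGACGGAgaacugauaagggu
mmu-miR-184-5p: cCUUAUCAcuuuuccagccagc
Mir184 hairpin: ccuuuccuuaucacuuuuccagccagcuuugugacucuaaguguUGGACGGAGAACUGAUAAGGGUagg

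The hairpin lies on the minus strand of mouse chromosome 9 at chr9:89802260-89802328 (69 bases) and the 22 bases of miR-184-3p at chr9:89802263-89802284, the only locus of this sequence in the table. None of the other mature miRNAs among the 1679 in the table held the same bases 2 to 8, and none the same bases 2 to 7. The closest other mature sequence, miR-8096, differed by an edit distance of 8. In the GENCODE release 21 annotation of GRCm38 no gene overlapped the hairpin. The nearest was the lincRNA 1700017I07Rik, 542 bases away on the opposite strand, and the nearest protein-coding genes were Ankrd34c at 63785 bases, Tmed3 at 97192 bases and Rasgrf1 at 107580 bases. The 5p arm was not analysed here. The lincRNA 4930524O08Rik, 24191 bases from the hairpin, was near the detection limit in every tissue, with tissue medians from 0 rpmm in pancreas to 0.643 rpmm in bone for its transcript ENSMUST00000183387.7.

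The libraries of each cohort had a median of 20.1 M mapped reads, with a range of 2.29 M to 167 M for aging and 9.20 M to 47.6 M for parabiosis, and miR-184-3p had a median of 56 and 47.5 reads per library. It was at 0 in 18 of the 769 aging libraries, 5 of BAT, 7 of bone, 2 of limb muscle and 1 each of lung, pancreas, SCAT and spleen. A count of 0 there allows levels of up to 0.154 to 1.12 rpmm, depending on depth and covering counting error only, so these zeros do not show absence. In 12 aging libraries and 3 parabiosis libraries the log2 miRNA profile correlated better with the mean of another tissue than with that of the labelled tissue. They include pancreas replicate 02 at 3 months (closest to limb muscle, with summed acinar miRNAs of 2.32 rpmm against a pancreas median of 10652 rpmm, and miR-184-3p at 0), bone replicate 37 at 21 months (closest to SCAT, 10.3 rpmm), skin replicate 24 at 21 months (closest to liver, 0.916 rpmm), SCAT replicate 16 at 3 months (closest to bone, at 0) and MAT replicate 33 at 27 months (closest to SCAT, 15.4 rpmm). The 12 brain libraries with title numbers 25 to 36 and the 9 kidney libraries with title numbers 1 to 12 also stood apart.

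Over both sexes together, pancreas had by far the highest median of miR-184-3p. Its 45 libraries ran from 0 to 254 rpmm with a median of 58.3 rpmm, and miR-184-3p ranked 112 among the miRNAs there. In no other tissue did it rank above 295, its rank in liver. Brain was next, with a median of 8.22 rpmm (0.961 to 18.6 rpmm, n = 51), followed by GAT with 5.65 rpmm (0.316 to 21.0 rpmm, n = 37) and SCAT with 5.15 rpmm (0 to 495 rpmm, n = 44). The highest single values of the cohort, 478 and 495 rpmm, were in SCAT and not in pancreas, as the plot of the tissues shows. Among females alone SCAT lay above pancreas, with medians of 117 rpmm (n = 11) and 46.4 rpmm (n = 13).

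Most other tissues sat close together. Small intestine (median 3.80 rpmm), skin (3.50 rpmm), MAT (3.07 rpmm), liver (3.04 rpmm), lung (2.70 rpmm), marrow (2.60 rpmm), heart (2.40 rpmm), spleen (1.91 rpmm) and kidney (1.46 rpmm) followed in that order. Bone (0.549 rpmm), limb muscle (0.486 rpmm) and BAT (0.478 rpmm) were lowest, and only 31.2%, 31.9% and 16.1% of their libraries reached 1 rpmm. At these levels a library held a median of 11, 10 and 6 reads of miR-184-3p.

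**Figure D1:**
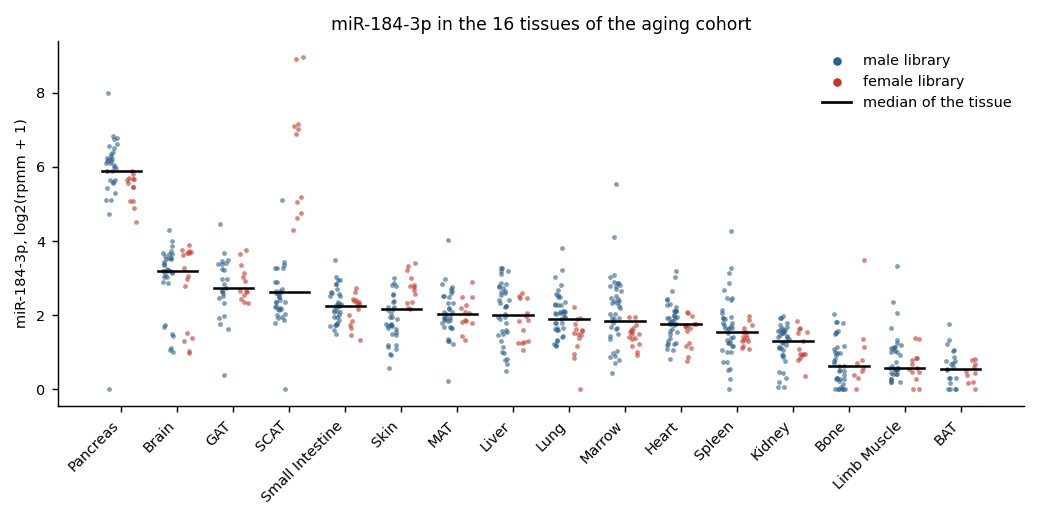
miR-184-3p in each library of the aging cohort, log2(rpmm + 1) on the vertical axis, with tissues ordered by their median (black line), male libraries in blue and female libraries in red. Pancreas stands above the rest, the female SCAT libraries reach beyond it, and a lower group of points is visible in brain.

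Of the 15 pairs of neighbours in this order, 4 differed beyond their spread in a two-sided permutation test of the mean log2 level (100000 shuffles, Benjamini-Hochberg adjustment over the 15). Pancreas exceeded brain by 2.83 ± 0.21 (SE) on the log2 scale, and SCAT exceeded small intestine by 1.23 ± 0.31. Both had an adjusted p of 7.5e-05 (permutation test), built on the smallest p that the shuffles can give. The sexes were pooled in these tests, and SCAT differed widely by sex. Over the age range that held both sexes, the SCAT median was 117 rpmm in females and 4.60 rpmm in males. The small intestine median was 3.93 rpmm in females and 3.74 rpmm in males. Whether SCAT exceeded small intestine among males alone was not tested. Spleen exceeded kidney by 0.40 ± 0.12 (adjusted p = 0.00469, permutation test), and kidney exceeded bone by 0.43 ± 0.12 (adjusted p = 0.0024, permutation test). The other 11 pairs were not separated, among them brain and GAT (0.12 ± 0.18, adjusted p = 0.711, permutation test). GAT and SCAT were ordered one way by the median and the other way by the mean (-0.66 ± 0.32, adjusted p = 0.139, permutation test). Tissues of the same mice enter both sides of a pair, so these libraries are not fully independent.

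Brain and kidney each held a set of libraries with far less miR-184-3p. The 12 brain libraries of title numbers 25 to 36 lay between 0.961 and 2.32 rpmm with a median of 1.53 rpmm, and the other 39 lay between 5.85 and 18.6 rpmm with a median of 9.87 rpmm, without overlap. The summed miRNAs were also lower in that set, with a median of 199346 rpmm against 601039 rpmm, and scaled to 1000000 miRNA reads the medians of miR-184-3p were 2.56 and 5.56. In kidney the 9 libraries of title numbers 1 to 12 lay between 0.0467 and 0.810 rpmm and the other 42 between 0.745 and 2.95 rpmm, with summed miRNAs of 116723 and 407682 rpmm. Without both sets, brain exceeded GAT by 0.62 ± 0.13 on the log2 scale (adjusted p = 3.75e-05, permutation test), and spleen no longer exceeded kidney (0.23 ± 0.11, adjusted p = 0.140, permutation test). The part of RNA quality or handling in these sets was not tested.

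In the parabiosis cohort the tissue order was MAT (9.01 rpmm), GAT (4.37 rpmm), liver (2.61 rpmm), heart (2.15 rpmm), kidney (1.65 rpmm) and limb muscle (0.349 rpmm). In the aging cohort the same tissues were ordered GAT, MAT, liver, heart, kidney and limb muscle. The medians of GAT, liver, heart, kidney and limb muscle lay close to those of the aging cohort, and that of MAT was higher than the 3.07 rpmm of the aging cohort. The cohorts were deposited as separate tables and were not tested against each other.

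With age, the level of miR-184-3p tracked the months most closely in marrow. Spearman's rho between its level and age was 0.775 over 56 marrow libraries, the highest of the 532 miRNAs tested in marrow. Medians were 0.845 rpmm at 1 month, 1.04 rpmm at 3 months, 2.57 rpmm at 6 months, 1.91 rpmm at 9 months, 3.33 rpmm at 12 months, 5.41 rpmm at 21 months, 6.16 rpmm at 24 months and, at 27 months, 5.18 rpmm. The 6 libraries of 3 months held 0.728 to 1.58 rpmm and the 6 of 21 months 1.82 to 7.23 rpmm, without overlap. The highest marrow value, 45.8 rpmm, came from replicate 19 at 18 months, where the other libraries left the median at 2.78 rpmm.

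Spearman's coefficient was also above 0.5, the threshold by which miR-184-3p was chosen, in 5 further tissues. It was 0.634 in liver, 0.593 in GAT, 0.579 in pancreas, 0.551 in lung and 0.550 in bone. Without libraries closest to another tissue it was 0.560 in pancreas and 0.503 in bone. In liver the median was 1.08 rpmm at 1 month, 1.76 rpmm at 3 months, 4.71 rpmm at 21 months, 8.10 rpmm at 24 months and, at 27 months, 7.28 rpmm. The liver course was not even, since its median was 4.14 rpmm at 9 months and 15-month livers had 1.92 rpmm. In pancreas it went from 33.1 rpmm at 1 month through 50.1 rpmm at 3 months to 80.0 rpmm (21 months) and 93.8 rpmm (27 months), so the tissue with the highest median over both sexes was also among those above the threshold. GAT went from 4.03 rpmm at 1 month to 9.81 rpmm at 27 months, lung from 1.74 to 4.61 rpmm and bone from 0.220 to 1.59 rpmm between the same ages. Just outside the threshold lay MAT (0.475, where 6.43% of miRNAs passed it), BAT (0.424) and small intestine (0.423), and just inside it lung and bone.

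Against all miRNAs the 6 of 16 tissues are to be read with a background of 3.75% of the 8849 pairs of a miRNA and a tissue with rho above 0.5. That share differed widely between tissues. It was 4.14% in marrow, 9.98% in liver, 6.58% in GAT, 1.27% in pancreas, 1.85% in lung and 6.38% in bone. In liver miR-184-3p ranked 34 of 501 miRNAs, while in pancreas it ranked 4 of 474 and in lung 4 of 593. In BAT, where 15.2% of miRNAs passed and the median rho of all miRNAs was 0.385, the rho of 0.424 ranked 201.

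**Figure D2:**
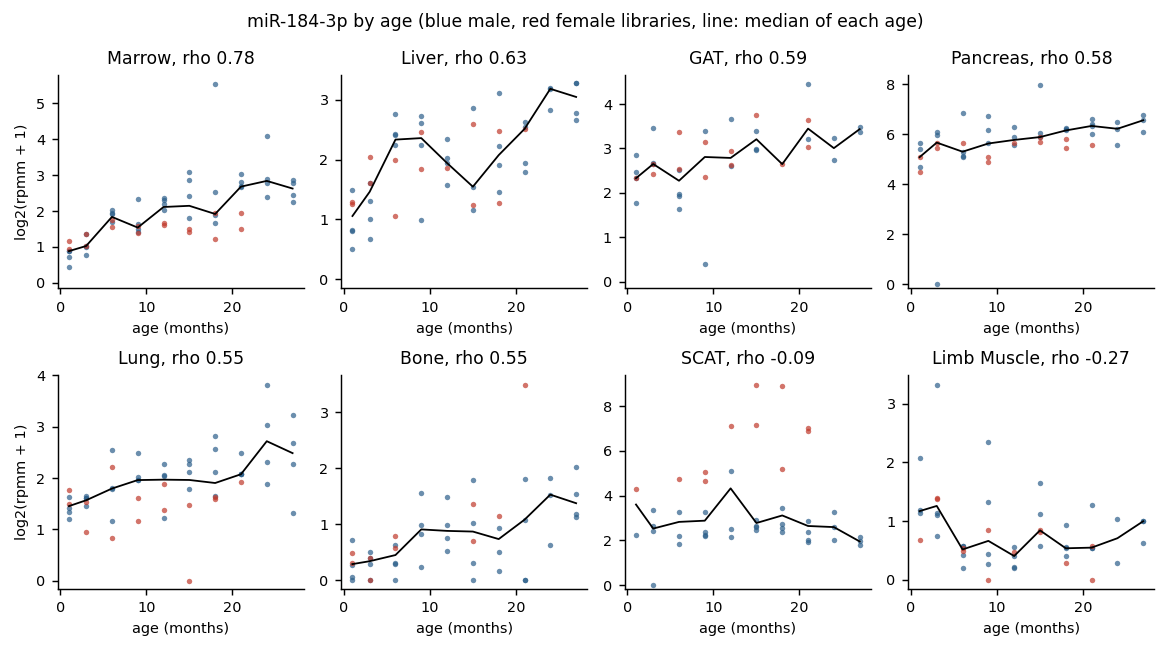
miR-184-3p by age in 8 tissues of the aging cohort, log2(rpmm + 1) against age in months, with male libraries in blue, female libraries in red and the median of each age as a line. Marrow and liver lie higher at the later ages, the red points lie above the line in SCAT, and limb muscle is highest at 1 and 3 months.

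The remaining tissues did not share this course. The coefficient was 0.243 in kidney, 0.218 in spleen, 0.118 in brain, 0.115 in skin, 0.045 in heart and -0.092 in SCAT. Limb muscle had the lowest value, -0.270, with medians of 1.25 rpmm at 1 month and 1.39 rpmm at 3 months against 0.430 rpmm at 6 months and 0.996 rpmm at 27 months. No tissue reached -0.5. By the same count over tissues, miR-29a-3p had 8 tissues above 0.5, miR-155-5p and miR-1895 had 7, and miR-29c-3p had 6 like miR-184-3p.

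Between 3 and 21 months the groups did not overlap in marrow (log2 difference 1.35 ± 0.26, SE), lung (0.67 ± 0.14) and kidney (0.82 ± 0.27), as was so upward for 1.13%, 2.7% and 2.18% of the miRNAs of these tissues. The 5 kidney libraries of 3 months held 0.0468, 0.289, 0.950, 1.21 and 1.89 rpmm, the lowest 2 from the set of title numbers 1 to 12, and the 5 of 21 months held 1.94 to 2.36 rpmm. Without kidney replicate 08 at 3 months the difference was 0.64. Liver (0.91 ± 0.26) and GAT (0.82 ± 0.37) differed by similar amounts with overlap, GAT by 0.53 without replicate 54 of 21 months. Skin (-0.85 ± 0.61), limb muscle (-0.93 ± 0.43) and heart (-0.12 ± 0.23) had lower means at 21 months. Without limb muscle replicate 11 of 3 months, at 9.02 rpmm, that difference was -0.56, and without heart replicate 46 of 21 months that of heart was 0.0075. Several values hung on a library that did not resemble its tissue. The pancreas difference was 1.54 with replicate 02 and 0.38 without it, that of bone 1.01 with replicate 37 and 0.46 without it, that of skin -0.85 with replicate 24 and -0.25 without it, and that of SCAT 1.75 with replicate 16 and 1.05 without it.

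The oldest mice carried a good part of the age course. Without the 24- and 27-month libraries, rho stayed above 0.5 in GAT (0.560), marrow (0.717) and pancreas (0.548) and was 0.457 in liver, 0.491 in lung and 0.387 in bone. Those ages held males alone. Among females alone, rho was 0.871 in bone, 0.620 in GAT, 0.606 in SCAT, 0.544 in marrow and 0.503 in brain. The brain value, over 16 female libraries, includes low ones of the set of title numbers 25 to 36. These are replicates 28, 34, 31 and 33 of 1, 3, 6 and 9 months and replicate 32 of 15 months. The female brain value without that set was not computed. In liver rho was 0.409 among females and 0.672 among males, and in lung 0.133 and 0.626. These differences between the sexes were not tested. With plate means removed, lung was at 0.409 and the other 5 tissues stayed above 0.5. Bone was at 0.437 and 0.481 with miRNA-read and median-ratio scaling, and without the 1-month libraries pancreas was at 0.460 and lung at 0.499, while MAT was at 0.507.

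The largest of the tested differences within a tissue was between the sexes in SCAT. The 11 female libraries of 1 to 21 months held 18.7, 23.8, 26.2, 32.0, 35.6, 117, 129, 136, 142, 478 and 495 rpmm. The 27 male libraries of the same ages ran from 0 to 33.5 rpmm with a median of 4.60 rpmm. Only replicate 41 of 12 months, at 33.5 rpmm, reached into the female range, and the next highest male value was 9.76 rpmm.

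The female libraries were higher by 3.80 ± 0.37 (SE) on the log2 scale (95% interval 3.06 to 4.54, limma with age as a factor, Benjamini-Hochberg adjusted p = 2.53e-11). In SCAT 69 of 592 miRNAs passed this test, 11.7%, and miR-184-3p ranked 14 by its p. Leaving out each library in turn gave differences of 3.54 to 3.98. By age, the female values were 18.7 rpmm at 1 month, 26.2 rpmm at 6 months, 23.8 and 32.0 rpmm at 9 months, 136 rpmm at 12 months, 142 and 495 rpmm at 15 months, 35.6 and 478 rpmm at 18 months and 117 and 129 rpmm at 21 months. From 12 months on, 6 of the 7 female libraries lay above 100 rpmm, whereas all 4 of 1 to 9 months lay at or under 32.0 rpmm.

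Epithelial miRNAs moved with this difference. All 5 members of the epithelial list, the miR-200 family and miR-141-3p that mark epithelial cells, were higher in female SCAT, with a median log2 difference of 4.42 against -0.29 over all miRNAs. Among them miR-200a-3p was higher by 4.28 ± 0.31 and miR-429-3p by 4.64 ± 0.38 (SE, limma). Their summed level was 1087 to 7762 rpmm in the 11 females and 10.4 to 959 rpmm in the 27 males, without overlap. Of the keratinocyte markers miR-205-5p was higher by 4.49 ± 0.55, and miR-203-3p had a difference of -0.63 ± 0.35 that did not pass (adjusted p = 0.214, limma). In skin, by comparison, the median keratinocyte sum was 23111 rpmm, and it was 1858 rpmm in female SCAT. In bulk tissue a change in the number of cells of a type and a change in the RNA of each cell cannot be told apart.

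Within a sex the libraries varied in both measures. The female library with the lowest epithelial sum, 1087 rpmm (21 months, replicate 14), held 129 rpmm of miR-184-3p, and that with the highest, 7762 rpmm (9 months, replicate 02), held 32.0 rpmm. Male replicate 41, the male library with the most miR-184-3p, also had the highest epithelial sum of the males, 959 rpmm, and male replicate 16, at 0 and with a profile closest to bone, had the lowest, 10.4 rpmm. Male replicates 42 of 27 months and 04 of 12 months had the next highest sums, 715 and 676 rpmm, with 2.88 and 4.64 rpmm of miR-184-3p. Spearman's rho between the measures was 0.28 over the 33 males of all ages and -0.17 over the 11 females. Since the epithelial sums of the sexes did not overlap, sex and epithelial content cannot be told apart in these libraries.

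**Figure D3:**
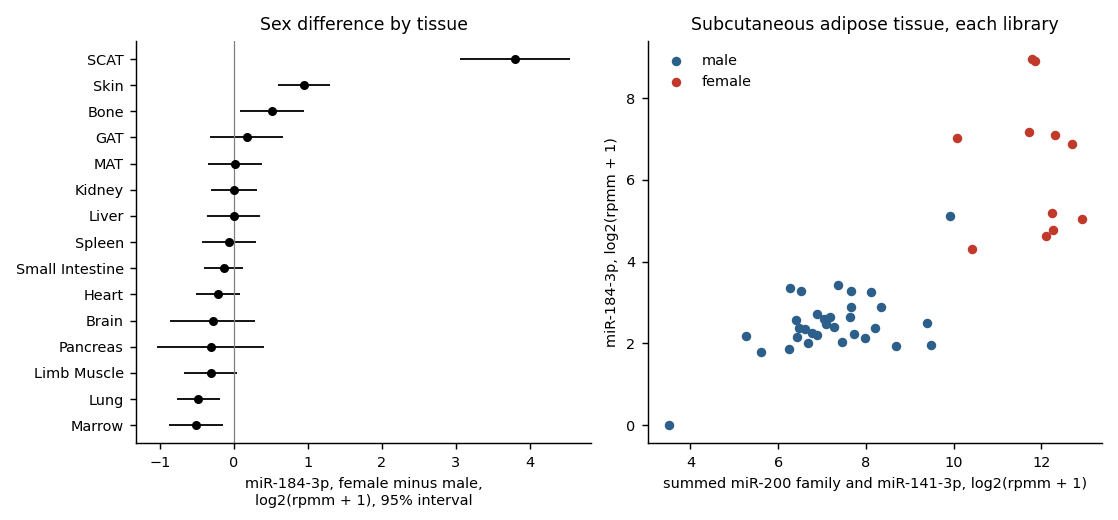
Left, the log2 difference of miR-184-3p between female and male libraries of 1 to 21 months in each tissue with its 95% interval (limma). Right, each SCAT library by its summed miR-200 family and miR-141-3p (horizontal) and its miR-184-3p (vertical), both as log2(rpmm + 1). SCAT differs by 3.80, and its female libraries (red) lie at higher values of both axes than nearly all males (blue).

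Skin showed a smaller difference in the same direction. The 13 female libraries ran from 3.50 to 9.53 rpmm with a median of 5.79 rpmm, and the 28 male libraries from 0.503 to 6.02 rpmm with a median of 2.31 rpmm, so the ranges overlapped. The difference was 0.96 ± 0.17 (SE, 95% interval 0.60 to 1.31, adjusted p = 2.93e-05, limma). Sex differences were common in skin, where 29.2% of 534 miRNAs passed. Of the epithelial list 3 of 5 were higher in female skin, with a median log2 difference of 0.76 against 0.11 over all miRNAs, and with their log2 sum as a covariate the difference of miR-184-3p was 0.74 (adjusted p = 0.000889, limma). Neither keratinocyte marker passed the test in skin. Of the leukocyte list 2 of 5 were higher in female skin, miR-150-5p by 0.87 ± 0.23 and miR-142a-3p by 0.61 ± 0.20 (SE, limma), and of the fibroblast markers miR-199a-3p was lower (-0.64 ± 0.23). Of the male germline and epididymis list 2 of 3 tested members were lower (median log2 difference -1.70). The part of these cell types in the difference was not tested.

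No other tissue passed, so 2 of 15 tissues were called, and BAT was not tested because too few of its libraries reached 1 rpmm. The female minus male difference was -0.48 in lung (95% interval -0.76 to -0.19, adjusted p = 0.0825, limma, 1.18% of miRNAs passing) and -0.51 in marrow (-0.88 to -0.14, adjusted p = 0.138, limma, 2.05% passing). It was 0.52 in bone (0.084 to 0.96, adjusted p = 0.313, limma, 0% passing and 78 of 531 under an unadjusted p of 0.05, and 0.22 without replicate 37) and -0.0014 in liver (-0.36 to 0.36, adjusted p = 1.00, limma, 8.58% passing). In the remaining tested tissues it lay between -0.31 and 0.18, with 9.83% of miRNAs passing in GAT, 5.88% in limb muscle, 1.98% in kidney, 0.933% in heart and 0% in brain, MAT, pancreas, small intestine and spleen. Pancreas had a median of 46.4 rpmm in 13 females and 63.9 rpmm in 26 males, a difference of -0.31 with a wide interval of -1.04 to 0.41 (adjusted p = 0.969, limma), and 13 of 479 miRNAs had an unadjusted p under 0.05 there. Without replicate 02 it was -0.60 (adjusted p = 0.211, limma).

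The difference between tissues was tested directly, in a fit over all tissues. The sex difference of SCAT minus the mean of the 15 other tissues was 3.84 (95% interval 3.35 to 4.33, adjusted p = 2.89e-42, limma), the smallest p of the 650 miRNAs in that contrast, where 10.3% passed. That of skin was 0.81 (0.35 to 1.26, adjusted p = 0.00497, limma), where 16% passed, with SCAT among the tissues it was set against. Marrow (-0.76, adjusted p = 0.0995, limma) and lung (-0.72, adjusted p = 0.252, limma) departed the other way and did not pass. SCAT was again among the others. Both ranked 2 of 650 by p, where 1 miRNA passed. Adjusted over the 16 tissues instead, p was 0.00245 in marrow, 0.00316 in lung and 0.00286 in skin (limma). Brain, limb muscle and pancreas, also negative, were under 0.05 by that adjustment. Libraries of the same mice enter that fit as if independent, so its p-values are too small.

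In the parabiosis mice, 5 of the 6 tissues could be tested, and 1 of 20 contrasts passed. Limb muscle was left out because 1 of its 30 libraries, 3.33%, reached 1 rpmm. Its values ran from 0.0869 to 1.04 rpmm.

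In kidney, heterochronic aged mice held more miR-184-3p than their young partners. The 6 HA mice held 1.82, 2.57, 2.77, 3.26, 4.00 and 4.68 rpmm, and the 7 HY mice ran from 1.00 to 2.35 rpmm with a median of 1.39 rpmm. The groups overlapped only through 12A at 1.82 rpmm and 14B at 2.35 rpmm, and in 6 of 6 pairs the aged partner was higher. The difference was 0.75 ± 0.22 (SE, 95% interval 0.30 to 1.19, adjusted p = 0.0131, limma), a ratio of means of 2.17, in a contrast where 22.7% of 537 miRNAs passed and 16.8% had a ratio of means above 1.5 upward with an unadjusted p under 0.05. With the pair as a fixed block it was 0.78 (adjusted p = 0.00567, limma). Since the HY mice were of a strain of their own, age and strain cannot be told apart in this contrast.

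The other 3 kidney contrasts did not pass. IY kidneys ran from 0.699 to 3.32 rpmm with a median of 1.26 rpmm, and IA kidneys from 1.15 to 4.41 rpmm with a median of 1.75 rpmm, a difference of 0.29 (-0.11 to 0.70, adjusted p = 0.435, limma, background 5.4%). HA against IA was 0.41 (-0.03 to 0.84, adjusted p = 0.380, limma, background 0.745%). HY against IY was -0.05 (-0.46 to 0.37, adjusted p = 0.999, limma). The contrasts share groups and are not independent of each other.

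Other cell type markers moved with the kidney difference. Of the leukocyte list 4 of 5 were higher in HA than in HY kidneys, among them miR-223-3p by 1.35 ± 0.24 and miR-142a-3p by 1.18 ± 0.26 (SE, limma), as were both fibroblast markers, miR-199a-3p by 0.86 ± 0.19 and miR-214-3p by 1.47 ± 0.27. The summed leukocyte miRNAs ran from 1227 to 3075 rpmm in HA and from 689 to 1238 rpmm in HY kidneys. The summed fibroblast miRNAs ran from 5332 to 8513 rpmm in HA and from 3075 to 4137 rpmm in HY kidneys, without overlap. In IA kidneys the medians of these sums were 2111 and 5103 rpmm, against 1949 and 6713 rpmm in HA. Of the brown fat list 3 of 4 were lower in HA than in HY kidneys (median log2 difference -0.71) and of the gut and kidney list 1 of 3 (median -0.48), against a median of -0.03 over all miRNAs. Their part in the result was not tested.

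In liver, the isochronic mice gave a difference of similar size that did not pass. The 8 IA livers held 2.11, 2.22, 2.50, 2.62, 5.26, 7.41, 7.51 and 7.65 rpmm and the 8 IY livers ran from 1.21 to 4.73 rpmm with a median of 1.84 rpmm. The IA livers fell into 4 low and 4 high values, and the low ones overlapped the IY range. The difference was 0.70 ± 0.29 (SE, 95% interval 0.12 to 1.28), with an unadjusted p of 0.0194 and an adjusted p of 0.261 (limma), and it did not pass, in a contrast where 5.63% of 444 miRNAs did. By DESeq2 on the recovered reads it was 0.88 with an adjusted p of 0.0480. With a ratio of means of 1.97 it met the criterion of a ratio above 1.5 and an unadjusted p under 0.05, which 7.43% of the miRNAs met in the same direction.

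The livers of HA mice held 0.701, 2.02, 2.55, 3.44, 3.72, 3.88 and 7.39 rpmm, and those of HY mice ran from 0.706 to 3.28 rpmm with a median of 2.60 rpmm. HA minus IA was -0.37 ± 0.30 (-0.97 to 0.23, unadjusted p = 0.217, adjusted p = 0.993, limma), a ratio of means of 0.727. It did not meet the criterion of a ratio under 2/3 and an unadjusted p under 0.05. HY minus IY was -0.03 ± 0.30 (-0.63 to 0.57, adjusted p = 0.970, limma). Limma called 0 of 444 miRNAs in both contrasts, where 23 and 39 had an unadjusted p under 0.05. HA minus HY was 0.36 (-0.26 to 0.98, adjusted p = 0.494, limma, background 7.21%), against a median of 0.30 over all miRNAs, and the aged partner was higher in 6 of 7 pairs. The study singled out this miRNA in liver on these same libraries, so these values are not independent evidence of a direction.

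**Figure D4:**
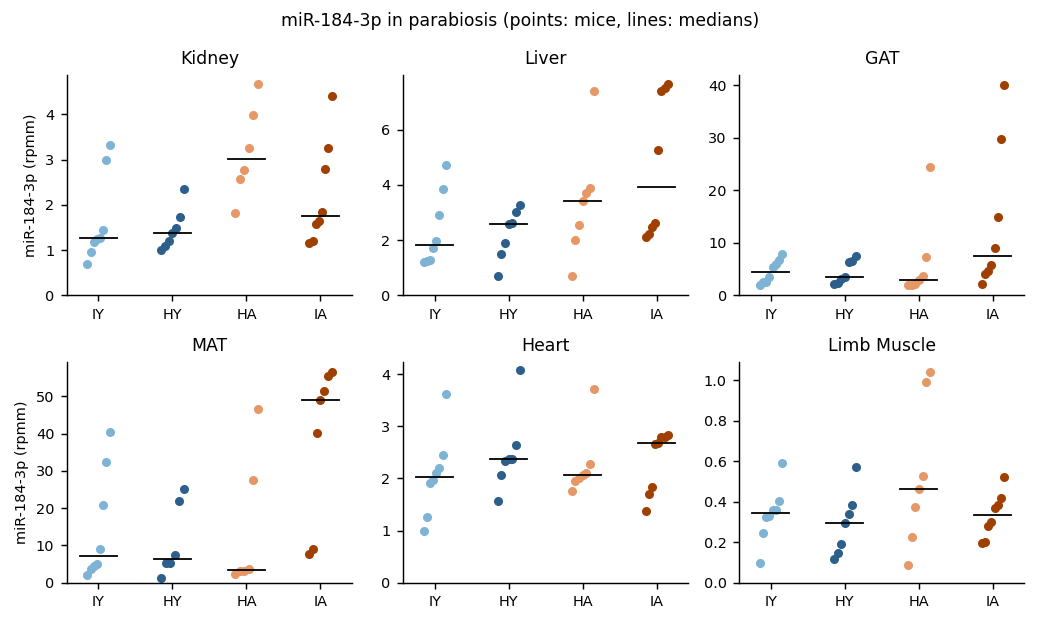
miR-184-3p (rpmm) in each parabiosis mouse by tissue and group, with points for mice and lines for medians. HA kidneys lie above HY kidneys with a slight overlap, IA livers split into a low and a high cluster, and the MAT and GAT panels are stretched by a few high mice.

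MAT carried the highest values of the cohort, and they came with pancreatic miRNAs. IA mice held 7.81, 9.01, 40.2, 49.1, 51.5, 55.6 and 56.5 rpmm. IY mice held 2.16, 3.73, 4.39, 5.08, 9.19, 20.9, 32.4 and 40.3 rpmm, HY mice ran from 1.25 to 25.1 rpmm with 4 of 6 under 10 rpmm, and HA mice held 2.45, 3.05, 3.22, 3.74, 27.5 and 46.6 rpmm. Every group thus held low and high mice, and no mouse lay between 9.19 and 20.9 rpmm.

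The 12 MAT libraries with at least 20 rpmm had summed acinar pancreas miRNAs of 5410 to 17054 rpmm, and the 15 under 10 rpmm had 129 to 2318 rpmm, without overlap. The summed islet miRNAs were 2979 to 13343 rpmm and 280 to 2758 rpmm in the same libraries. In the MAT of the aging cohort the acinar sum never exceeded 391 rpmm, and the pancreas median was 10652 rpmm. The high libraries were 5 of 7 IA, 3 of 8 IY, 2 of 6 HY and 2 of 6 HA.

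**Figure D5:**
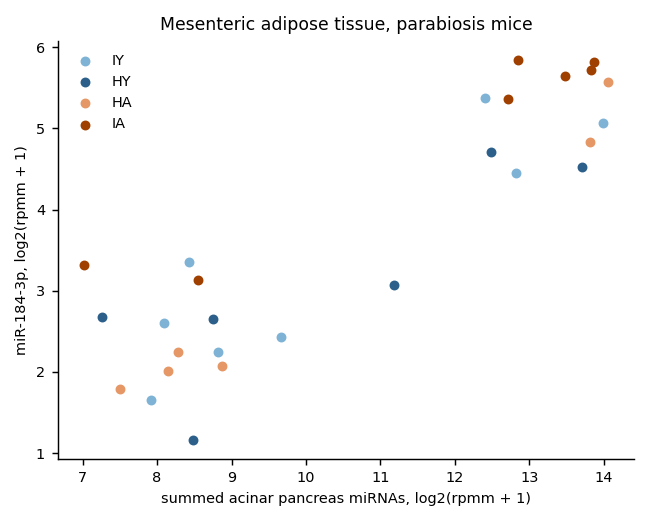
Each parabiosis MAT library by its summed acinar pancreas miRNAs (horizontal) and its miR-184-3p (vertical), both as log2(rpmm + 1), coloured by group. The 12 libraries rich in acinar miRNAs form a separate cluster at high miR-184-3p that includes mice of all 4 groups.

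IA minus IY in MAT was 1.58 ± 0.68 (SE, 95% interval 0.19 to 2.98, unadjusted p = 0.0277, adjusted p = 0.150, limma) and HA minus IA was -1.89 ± 0.73 (-3.39 to -0.39, unadjusted p = 0.0154, adjusted p = 0.189, limma). Neither passed. Limma called 0 of 598 miRNAs in both contrasts, where 157 and 126 had an unadjusted p under 0.05. By the ratio and unadjusted p both qualified, as did 2.01% of 598 miRNAs upward in the first and 1.34% downward in the second. With the log2 acinar sum as a covariate, added after the data were seen, they were 0.87 and -1.10 (adjusted p = 0.174 and 0.306, limma). Without the 3 libraries closest to GAT they were 1.26 and -1.69 (adjusted p = 0.409 and 0.446, limma). The median of the acinar list differed by 2.38 and -2.97 in the same contrasts.

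GAT showed a similar dependence on a few mice. IA mice held 2.22, 4.14, 4.61, 5.87, 9.02, 14.9, 29.7 and 40.1 rpmm, against 2.00 to 7.83 rpmm in the 8 IY and 2.21 to 7.44 rpmm in the 7 HY mice. The HA mice held 1.96, 2.01, 2.17, 2.90, 3.70, 7.30 and 24.5 rpmm. The 4 libraries above 10 rpmm, 7A, 9B and 6A of IA and 1A of HA, had summed epithelial miRNAs of 8442 to 31186 rpmm, where the median of all GAT libraries was 1431 rpmm. Among the HY mice the 3 with the highest epithelial sums, 12B, 20B and 14B (19778, 18058 and 7009 rpmm), also held the most miR-184-3p, 6.30 to 7.44 rpmm. The levels did not follow the sums closely, since 1A held 24.5 rpmm with a sum of 19768 rpmm, like that of 12B. IA mouse 19A held 9.02 rpmm with a sum of only 140 rpmm. The part of epithelial cells in these values was not tested.

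IA minus IY in GAT was 1.00 ± 0.46 (SE, 95% interval 0.05 to 1.94, unadjusted p = 0.0394, adjusted p = 0.292, limma, background 6.28%) and did not pass, while DESeq2 on the recovered reads gave 1.74 with an adjusted p of 0.0315. The ratio of means was 3.03, and 4.35% of 621 miRNAs met the ratio criterion upward. HA minus IA was -0.98 (-1.95 to 0.00, adjusted p = 0.245, limma, background 3.86%). HY minus IY was -0.016 (-0.99 to 0.96) and HA minus HY was 0.035 (-0.97 to 1.04), with 0.161% of miRNAs passing in the latter.

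Heart was the most even of the tested tissues. Its 30 libraries ran from 0.999 to 4.08 rpmm, and the group medians were 2.03 rpmm in IY, 2.37 rpmm in HY, 2.07 rpmm in HA and 2.68 rpmm in IA. None of the 4 contrasts passed, and their intervals lay within -0.42 to 0.52. Of 516 miRNAs, 18.6% passed in IA minus IY, 19.6% in HA minus HY and 0.388% in HA minus IA. The highest values of the HA and HY hearts, 3.70 and 4.08 rpmm, belonged to 14A and 14B, the partners of pair 14, which also held the highest HA and HY kidney values.

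The miRNAs whose tissue order was most like that of miR-184-3p, among 754 with a median of at least 1 rpmm in some tissue, were miR-217-3p (Spearman's rho 0.77 over the 16 tissue medians), miR-6969-3p (0.68), miR-666-5p (0.67), miR-409-5p (0.67) and miR-138-5p (0.65). The first pair were highest in pancreas and the other 3 in brain, the tissues that lead the order of miR-184-3p. Scaled to the summed miRNA reads of each library, these values were 0.68, 0.57, 0.48, 0.45 and 0.47.

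Within tissue, age and sex, over 769 libraries, the levels most like it among 650 miRNAs were those of miR-652-3p (Pearson's r 0.67), miR-330-5p (0.67), miR-320-3p (0.67), miR-125b-1-3p (0.65) and miR-324-3p (0.64). These libraries share depth and the share of reads spent on miRNAs, and scaled to the summed miRNA reads the values were 0.47, 0.43, 0.42, 0.53 and 0.48. For miR-652-3p the value was 0.96 in brain, 0.92 in pancreas and 0.85 in kidney, and lowest in marrow (0.45), small intestine (0.42), limb muscle (0.41) and SCAT (0.24).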

How the data were processed

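Small RNA of 16 tissues of the aging cohort and 6 tissues of the parabiosis cohort was sequenced single-end. Per the labels and the study's methods, the authors mapped the reads with miRMaster 2.0 and Bowtie 1.2.3 to miRBase 22 and other noncoding RNA references, and deposited, for each RNA in each library, a signal of reads scaled to 1000000 mapped reads. Values sum to more than 1000000 in 99.6% and 100.0% of the libraries of the 2 cohorts, so they are not shares of a single total. To recover reads, a library's smallest nonzero value among the other RNAs was set to 1 read: 99.9% and 99.8% of values under 1000 reads were whole within 0.05, and all 769 and 176 values of miR-184-3p were.

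Of the aging cohort 2 columns were left out, as their names conflict with the annotation. Title numbers do not identify mice across tissues there. Within a tissue each library is treated as a separate animal, which the labels do not state, so p-values measure the spread between libraries. miRNAs of at least 1 rpmm in 10% of a tissue's libraries were tested with limma 3.58.1 in R 4.3.3 on log2(rpmm + 1), with a trended moderated spread and Benjamini-Hochberg adjustment within tissue and contrast at 0.05. The sex fit covered 1 to 21 months and held age as a factor. All 4 parabiosis groups of a tissue shared a spread. edgeR 4.0.16 and DESeq2 1.42.0 on the recovered reads were alternatives. The limma step was tested on simulated data. Levels were compared between tissues with scipy 1.17.1. The age course and the named neighbours in sequence, position and pattern are descriptions. The marker lists are literature markers of cell types.

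Parabiosis pairs are numbered in the labels, and partners share a circulation. The correlation of partners, estimated over all miRNAs of a tissue, ran from -0.284 in MAT to 0.235 in liver. Hairpin and arms come from RefSeq on GRCm38.p6, and the authors' build was mm10, the same assembly. miR-184-3p, the lists, the named miRNAs and the tests were chosen with earlier results of these data known. The name of the strain of the HY mice is not reported here.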

Additional observations from a re-analysis of the deposited data

Results flagged for a closer look

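In 54 groups of 4 to 10 libraries, the parabiosis groups and the 3- and 21-month groups of the aging cohort, 9 libraries lay far from the rest of their group in miR-184-3p. The distance was judged on rpmm and not on the log2 scale. Chance would give about 1 in 20 groups for normally distributed values only, which was not checked. All but lung replicate 45 were high, so the number that chance gives here is not known. In parabiosis these were GAT of HA mouse 1A at 24.5 rpmm, which also had 19768 rpmm of summed epithelial miRNAs, heart of HA mouse 14A at 3.70 rpmm and heart of its HY partner 14B at 4.08 rpmm. In the aging cohort they were bone replicate 37 of 21 months at 10.3 rpmm, whose miRNA profile was closest to SCAT, GAT replicate 16 of 3 months at 10.1 rpmm and limb muscle replicate 11 of 3 months at 9.02 rpmm. Lung replicate 45 of 3 months was low at 0.929 rpmm, lung replicate 25 of 21 months was high at 4.65 rpmm and spleen replicate 31 of 21 months was high at 6.31 rpmm.

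The sex difference of miR-184-3p differed between tissues. It exceeded the mean of the 15 other tissues by 3.84 in SCAT and by 0.81 in skin on the log2 scale (adjusted p = 2.89e-42 and 0.00497, limma), in a fit that treats libraries of the same mice as independent. Marrow (-0.76) and lung (-0.72) lay below that mean and did not pass with adjustment over the miRNAs (adjusted p = 0.0995 and 0.252, limma).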

How the results depend on the processing

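The SCAT and skin sex differences and the HA minus HY difference in kidney kept their direction and passed under every alternative run for them, the added ones included. In SCAT the fit with the epithelial covariate, 2.51, extrapolates, since the sums of the sexes do not overlap, and is not counted. The ranges were 3.54 to 4.93, 0.74 to 1.23 and 0.65 to 1.13 on the log2 scale. The count of tissues with rho above 0.5 was 6 and ran from 5 to 7 under the other alternatives with changes of membership, GAT and marrow being above 0.5 under each, but it was 3 without the 24- and 27-month libraries. Leaving out each library in turn kept it at 6 or 7. The count of differing neighbours was 4 and ran from 3 to 5. By DESeq2, 3 parabiosis contrasts passed in place of 1, the added ones being IA minus IY in GAT (1.74, adjusted p = 0.0315) and in liver (0.88, adjusted p = 0.0480), and edgeR called neither. The acinar and epithelial covariates, the fits by sex, the fits without the brain and kidney sets of title numbers, the leave-one-out of the sex fits and the comparison of sex differences between tissues were chosen after seeing the data. With the pair as a random or fixed replicate block no call changed, and the kidney difference was 0.78 (adjusted p = 0.00567, limma) with the fixed block.

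For 21 against 3 months a pseudocount of 0.1 rpmm gave 1.25 in BAT, 1.68 in kidney, -1.88 in limb muscle, 0.92 in lung and 1.86 in marrow, since it weighs low values more, and median-ratio scaling gave -0.039 in BAT and 0.38 in lung. Leaving out each library gave 0.085 to 0.48 in BAT, which has 2 libraries at 3 months, and -1.44 to -0.25 in skin, which has 2 at 21 months.

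All sign changes were in values that did not pass under any of these settings, and their cause was not tested. Plate and pool are those of the deposited annotation, as covariates. In parabiosis they were GAT HY minus IY (7.19e-05 with edgeR, 0.30 against 4.5-month IY mice), GAT HA minus HY (-0.0054 with a pseudocount of 0.1), heart HA minus IA (0.057 without pairs 19 and 20, 0.038 with the acinar covariate), liver HY minus IY (0.22 and 0.17 with miRNA-read and median-ratio scaling, 0.16 with edgeR, 0.20 with DESeq2, 0.10 with pool, 0.064 with the acinar covariate), MAT HY minus IY (0.18 with pool, 0.44 against 4.5-month IY mice) and MAT HA minus HY (0.33 with edgeR and with DESeq2, 0.49 without pairs 19 and 20, 0.16 without libraries closest to another tissue, 0.052 with the acinar covariate). Pairs 19 and 20 hold the mice of the other substrain, 19A, 19B and 20A, and also the HY mouse 20B. The MAT value of 0.49 is therefore not an exclusion by substrain alone. With each mouse left out, HY minus IY ran from -0.13 to 0.065 in kidney and from -0.10 to 0.12 in liver. For sex they were brain (0.0060 with plate), kidney (-0.051 and -0.14 with miRNA-read and median-ratio scaling, -0.011 with plate, -0.26 with edgeR), liver (0.057 with a pseudocount of 0.1, 0.45 with plate), MAT (-0.025 with edgeR) and spleen (0.046 with a pseudocount of 0.1). A filter on a mean of 10 rpmm left miR-184-3p in MAT of the parabiosis mice and in pancreas and SCAT for sex, and gave no value elsewhere. In bone, limb muscle and BAT, with medians of 6 to 11 reads, only large differences could have been seen.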
